A study of Canis lupus familiaris with 25 samples.

Results

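Of the 24532 genes in the count table, 10 belong to the ERBB family described here, namely the 4 receptors EGFR, ERBB2, ERBB3 and ERBB4 and the 6 ligands EGF, TGFA, AREG, EREG, HBEGF and BTC. They were found by gene symbol, and all 10 were in the table. This set was chosen with earlier results of these data known. Total RNA from 25 archival formalin-fixed, paraffin-embedded (FFPE) tumor samples of dogs was sequenced with QuantSeq 3′, which takes 1 read from the 3′ part of a transcript. There were 10 hepatoid gland adenomas (HGA, a benign tumor of modified sebaceous glands around the anus), 11 primary tumors of apocrine gland anal sac adenocarcinoma (AGASAC, a carcinoma of the glands in the anal sac wall) and 4 sublumbal lymph node metastases of AGASAC. Each metastasis came from the dog that also gave AGASAC primary tumor 1, 2, 3 or 4, and every other sample came from a different dog. The HGA dogs were 8 to 14 years old, with 5 males and 5 females, of which 4 were neutered and 6 were listed without that word and are called intact here. The dogs with primary AGASAC were 8 to 12.5 years old, with 6 males and 5 females, of which 9 were neutered and 2 were intact. The dogs with metastases were 8 to 10 years old, and dogs 1, 2 and 3 were neutered while dog 4 was intact. All dogs were privately owned. No dog was listed with a treatment, and tissue next to the tumor had been removed before RNA extraction. In such bulk samples, fewer cells of a type and less RNA per cell cannot be told apart.

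ERBB receptors are cell surface tyrosine kinases that pair with each other when a ligand binds. EGFR is bound by EGF, TGFA and AREG, while HBEGF, BTC and EREG bind both EGFR and ERBB4, and the neuregulins bind ERBB3 and ERBB4. ERBB2 has no known ligand and acts as a partner of the other receptors, and ERBB3 is a weak kinase that passes its signal on to phosphoinositide 3-kinase. The ligands are made as membrane-bound precursors that ADAM proteases cut free. In skin, EGFR signaling is known for its part in the growth of basal keratinocytes and sebaceous cells.

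The total counts on genes ranged from 1562347 to 6389555 in HGA, from 2581453 to 4218340 in primary AGASAC and from 2857541 to 3289546 in the metastases. Levels are given as CPM, the usual depth-scaled count, with library sizes adjusted by the TMM method over all 25 samples. A gene listed at 0 could still hold up to 3 counts, which is 0.543 to 1.84 CPM in HGA and 0.729 to 1.05 CPM in the AGASAC samples. These limits and all single low counts carry counting error only. The tumor labels were set beside epithelial markers. These markers were chosen with earlier results of these data known, so they are no independent check of the labels. The summed level of 6 luminal gland markers (KRT7, KRT8, KRT18, KRT19, PIP, EPCAM) was 409 to 731 CPM in HGA against 5392 to 10188 CPM in primary AGASAC and 5251 to 10452 CPM in the metastases. The sum of 5 basal and hepatoid or sebaceous markers (KRT5, KRT14, KRT79, TP63, CIDEA) was 4944 to 17550 CPM in HGA, 0 to 30.5 CPM in primary AGASAC and 0.531 to 18.5 CPM in the metastases. The tumor types thus differed in these markers, and for every gene below the tumor type and the epithelial cell type cannot be told apart. HGA 10 stood apart from the other HGA in several ERBB genes. It was also the only HGA of RNA extraction batch 9 and the only one in the second of the 2 series into which the names of the sequencing files fall in the supplement of the study.

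The first comparison asked how HGA differ from primary AGASAC. EGFR was higher in HGA, ERBB3 was lower, ERBB2 did not pass the test, and ERBB4 was not detected in any HGA. Among the ligands, HBEGF was higher in HGA, BTC was detected in 9 of 10 HGA and hardly in AGASAC, and EGF, TGFA, AREG and EREG were at or near the detection limit in most samples. A gene was called when edgeR's quasi-likelihood test gave a Benjamini-Yekutieli adjusted p (padj) of at most 0.05 over all tested genes and a log2 fold change (log2FC) of at least 1 in either direction. Of the 10 ERBB genes, 4 passed the filter on low counts, and 3 of these were called. Over all 12070 tested genes, 25.1% were called, with 12.6% higher and 12.5% lower in HGA. Of the ERBB genes tested, 2 were higher and 1 was lower.

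EGFR ranged from 430.4 to 1320.3 CPM in the 10 HGA, with a median of 587 CPM. In the 11 primary AGASAC it ranged from 7.17 to 408 CPM, with a median of 83.6 CPM. The lowest HGA (HGA 4) lay above the highest carcinoma (primary tumor 2), so the groups did not overlap. This was the case for 1 of the 4 ERBB genes tested and for 9.13% of all tested genes. The means were 677 ± 268 CPM (SD, n = 10) in HGA and 106 ± 116 CPM (SD, n = 11) in AGASAC, which corresponded to a fitted log2FC of 2.71 (SE 0.50, edgeR padj = 0.000968), or 6.53-fold. Relative to their mean, primary AGASAC varied more than HGA, since primary tumors 9, 3 and 6 had 7.17, 19.9 and 20.7 CPM, while primary tumors 10, 7 and 2 had 169.8, 176 and 408 CPM. Without HGA 10, which held the highest value, the log2FC was 2.55, and without AGASAC 2 it was 3.18. With the file name series as a covariate it was 2.59 (SE 0.56, edgeR padj = 0.0105), and within the first series, which held 9 HGA and only AGASAC 1, 2 and 3, it was 1.98 (SE 0.68, edgeR padj = 0.37).

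ERBB2 had the smallest fitted difference of the 3 receptors tested. It ranged from 18.5 to 159 CPM in HGA, with a median of 88.0 CPM, and from 64.1 to 190.2 CPM in primary AGASAC, with a median of 132 CPM. The lowest value belonged to HGA 10, and 9 of the 10 HGA lay between 44.5 and 159 CPM, within or near the range of the carcinomas. The mean was 87.1 ± 43.4 CPM (SD, n = 10) in HGA and 124 ± 36.9 CPM (SD, n = 11) in AGASAC, and the log2FC of −0.48 (SE 0.27) did not pass the test by edgeR (padj = 1).

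ERBB3 ranged from 8.60 to 125 CPM in HGA, with a median of 73.5 CPM, and from 26.5 to 549 CPM in primary AGASAC, with a median of 185 CPM. The groups overlapped through AGASAC 1, which at 26.5 CPM lay below 9 of the 10 HGA, while the other 10 primary tumors, at 135 CPM or more, lay above every HGA. The mean was 75.2 ± 33.9 CPM (SD, n = 10) in HGA and 235 ± 137 CPM (SD, n = 11) in AGASAC, with a log2FC of −1.62 (SE 0.38, edgeR padj = 0.013), or 3.07-fold lower in HGA. This difference moved with the series of the sequencing file names. Within the first series the log2FC was −0.38 (SE 0.40, edgeR padj = 1), and with the series as a covariate it was −1.04 (SE 0.60, edgeR padj = 1). The 7 primary tumors of the second series held 165 to 549 CPM, against 26.5, 165 and 135 CPM in AGASAC 1, 2 and 3. The part of the series in the difference was not tested.

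ERBB4 had 0 counts in all 10 HGA. In primary AGASAC it ranged from 0 to 113 CPM, with a median of 1.34 CPM, and 7 of the 11 tumors had more than 3 counts. AGASAC 2, with 113 CPM (346 counts), and AGASAC 1, with 47.6 CPM (158 counts), stood far above the others, which had at most 6.53 CPM, and AGASAC 5 and AGASAC 9 had no count. AGASAC 1 and 2 belong to the first file name series, and the 7 primary tumors of the second had 0 to 6.53 CPM. The mean of the primary tumors, 16.3 ± 35.0 CPM (SD, n = 11), was at least 8.83-fold higher than the limit of 1.84 CPM that 3 counts give in the shallowest HGA. ERBB4 did not pass the filter in this comparison. Without the filter it had an edgeR padj of 0.016, with a fitted change that depends on the prior count and is not given as a fold.

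**Figure D1:**
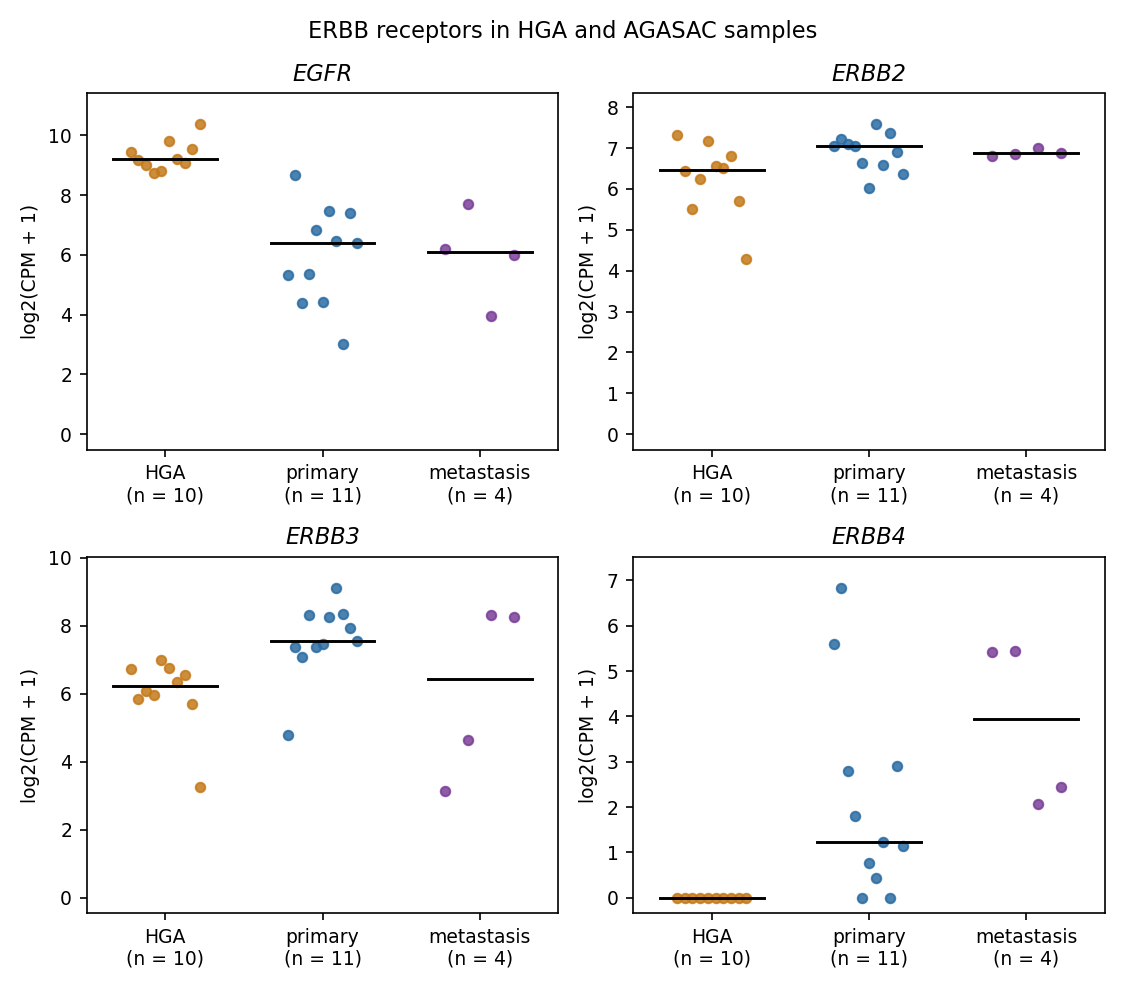
Level of the 4 ERBB receptors as log2(CPM + 1) (vertical axis of each panel) in HGA, primary AGASAC and AGASAC metastases (horizontal axis). Each point is 1 sample and each black line is a group median. All HGA lie above all AGASAC samples for EGFR, and all 10 HGA lie at 0 for ERBB4, where 2 primary tumors and 2 metastases stand above the rest.

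Of the ligands, BTC, betacellulin, showed the widest gap. In HGA it ranged from 0 to 45.3 CPM, with a median of 17.02 CPM and a mean of 20.3 ± 14.1 CPM (SD, n = 10). HGA 10 had 0 counts, HGA 4 had 3.69 CPM (6 counts), and the other 8 HGA had 13.1 to 45.3 CPM. In primary AGASAC, 8 of 11 tumors had no count and the other 3, AGASAC 4, 5 and 11, had 1, 6 and 3 counts, so only AGASAC 5 exceeded the limit. The groups overlapped because of HGA 10. BTC did not pass the filter with all 21 tumors. Without the filter its log2FC was 5.96 (SE 0.79, edgeR padj = 1.69e-05). Without HGA 10, the 1 HGA with no count, it passed the filter with a log2FC of 6.16 (SE 0.66, edgeR padj = 7.46e-07). It then passed only through its counts in HGA. Since AGASAC held few or no counts, the size of these changes depends on the prior count, and no fold is given.

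HBEGF, the heparin-binding ligand, ranged from 3.82 to 30.1 CPM in HGA, with a median of 15.1 CPM, and from 0.335 to 8.26 CPM in primary AGASAC, with a median of 2.37 CPM. The groups overlapped between HGA 9, HGA 6 and HGA 5, which had 3.82, 5.31 and 8.09 CPM, and AGASAC 11, 5 and 6, which had 8.26, 6.94 and 6.89 CPM. The mean was 16.1 ± 9.70 CPM (SD, n = 10) in HGA and 3.30 ± 2.80 CPM (SD, n = 11) in AGASAC, with a log2FC of 2.30 (SE 0.48, edgeR padj = 0.0042), or 4.92-fold. With the file name series as a covariate the log2FC was 2.45 (SE 0.74, edgeR padj = 0.137), and within the first series it was 2.89 (SE 0.74, edgeR padj = 0.0757). Macrophages are also known to make HBEGF. The sum of 7 macrophage markers (CD68, CD163, CD14, CSF1R, AIF1, C1QA, C1QB) was 81.9 to 263 CPM in HGA and 141 to 415 CPM in primary AGASAC. Of the 7, 2 (CD14 and C1QB) were lower in HGA and 0 higher, against 12.5% and 12.6% of all tested genes. The part of macrophages in the HBEGF difference was not tested.

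The remaining ligands had few counts. EGF had no count in 9 of 10 HGA and 2 counts in HGA 10. In primary AGASAC it had 46 counts (15.0 CPM) in AGASAC 2, 8 counts (2.41 CPM) in AGASAC 1, 4 counts (1.31 CPM) in AGASAC 10, 1 count in AGASAC 3 and none in the other 7. AREG, amphiregulin, had 0 to 15 counts (0 to 2.85 CPM) in HGA and 0 to 6 counts in primary AGASAC, with more than 3 counts in 2 of 10 HGA and 4 of 11 AGASAC. EREG, epiregulin, had no count in any HGA, at most 2 counts in primary AGASAC, and 3 counts in metastasis 4 with none in the other metastases. TGFA had at most 1 count in any of the 25 samples. None of these 4 genes passed the filter, and without it their edgeR padj were 0.271 for EGF, 0.447 for EREG and 1 for AREG and for TGFA. For TGFA and EREG a difference was not detectable at this depth.

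**Figure D2:**
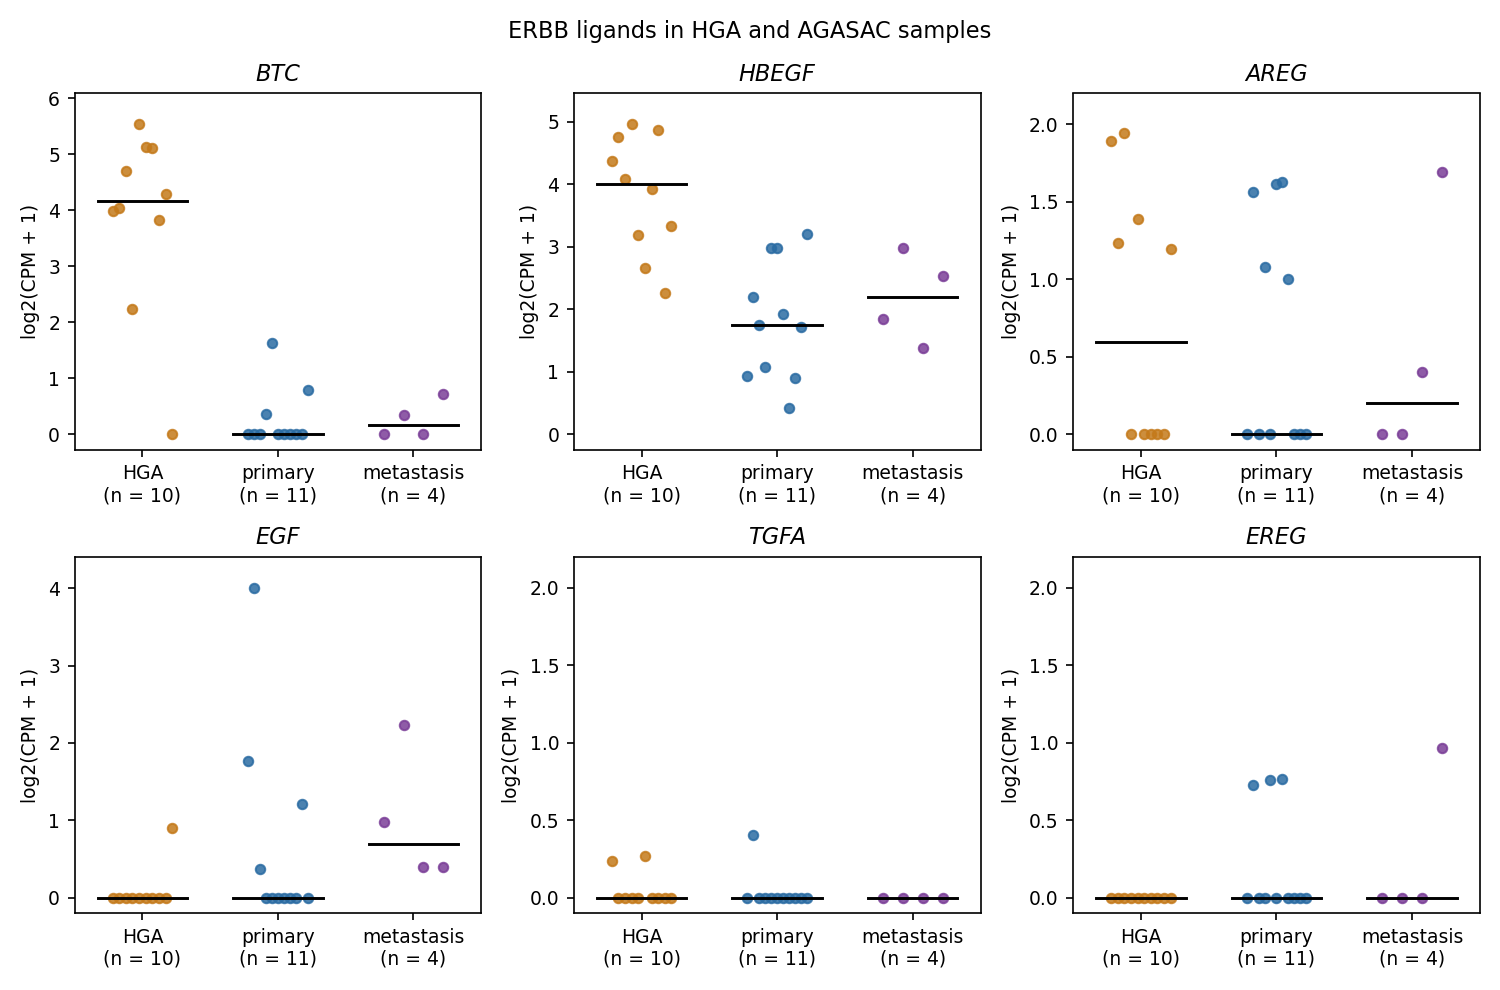
Level of the 6 ERBB ligands as log2(CPM + 1) (vertical axis, with its own range in each panel) in HGA, primary AGASAC and AGASAC metastases (horizontal axis). Each point is 1 sample and each black line is a group median. BTC is above 0 in 9 of 10 HGA, HBEGF overlaps between the tumors, and the panels of AREG, EGF, TGFA and EREG rest on few counts.

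RNA extraction batches 5, 6 and 8 held both tumor types. EGFR had a log2FC of 3.09 in batch 5 (3 HGA and 3 primary AGASAC), 4.28 in batch 6 (3 and 2) and 2.02 in batch 8 (2 and 3), so it was higher in HGA in each of them. The log2FC of ERBB3 was −1.88, −1.35 and −0.32 in the same batches. HBEGF had 2.23 in batch 6 and 1.38 in batch 8, and it did not pass the filter in batch 5. Within these batches edgeR called EGFR in batch 6 only (padj = 0.0105). With the extraction batch as a covariate over all 21 tumors, edgeR called EGFR (log2FC 3.05, padj = 0.0024), ERBB3 (log2FC −1.41, padj = 0.0308) and HBEGF (log2FC 2.62, padj = 0.0143).

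The second comparison set the metastases against the primary tumors of the same 4 dogs. Its main fit did not pair the samples by dog, and a fit with the dog as a replicate block is given below for EGFR, ERBB3 and ERBB4. No ERBB gene changed beyond the threshold. Of the 10 genes, 4 passed the filter, the 4 receptors, and 0 were called, as were 0 of all 12629 tested genes (0%) by edgeR, with 145 genes at an unadjusted p under 0.05 and 5 genes called by DESeq2. ERBB2 was 132, 148, 137 and 132 CPM in the primary tumors of dogs 1 to 4 and 111, 115, 128 and 118 CPM in their metastases. It was lower in the metastasis in 4 of 4 dogs, and the groups did not overlap, which held for 1 of the 4 ERBB genes tested and 1.14% of all tested genes. The difference was small, with a log2FC of −0.22 in the unpaired main fit (SE 0.15, edgeR padj = 1). By dog, metastasis minus primary tumor on the log2(CPM + 1) scale was −0.26, −0.36, −0.097 and −0.16 in dogs 1 to 4. The fit with the dog as a replicate block did not call ERBB2 either. Summed markers of other cell types also differed in 1 direction in every dog. The summed level of 9 lymphocyte and lymph node markers (among them CD3E, MS4A1 and CCL21) was 48.5, 34.6, 21.3 and 37.0 CPM in the primary tumors and 55.5, 43.2, 62.4 and 51.1 CPM in the metastases, higher in 4 of 4 dogs. The sum of 6 muscle markers (DES, MYH11, ACTG2, ACTA1, CKM, MB) was 22.3, 344, 25.5 and 368 CPM in the primary tumors and 3.24, 51.5, 21.9 and 21.1 CPM in the metastases, lower in 4 of 4 dogs. None of these markers was called by edgeR, although of those tested CD3E and ACTA1 did not overlap between the groups, and their part in the ERBB2 difference was not tested.

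The levels of the other receptors differed widely between dogs. EGFR was 39.5, 408, 19.9 and 39.7 CPM in the primary tumors of dogs 1 to 4 and 73.3, 206, 14.5 and 63.6 CPM in the metastases, so dog 2 had the highest and dog 3 the lowest value at both sites. ERBB4 was 47.6, 113, 5.93 and 2.502 CPM in the primary tumors and 41.9, 42.4, 3.22 and 4.47 CPM in the metastases. Dogs 1 and 2 had the high ERBB4 levels at both sites. All samples of these dogs were of RNA extraction batch 8, and those of dogs 3 and 4 were of batches 5 and 6. AGASAC primary tumor 5, also of batch 8, had no ERBB4 count. The part of the batch in these levels, and in those of EGF and NRG3 below, was not tested. ERBB3 was 26.5, 165, 135 and 319 CPM in the primary tumors and 7.79, 23.6, 315 and 302 CPM in the metastases. Both metastases with high ERBB4 had low ERBB3, with 24 and 89 counts, as did the primary tumor of dog 1, with 88 counts. The primary tumor of dog 2, with the highest ERBB4 of these samples, had 165 CPM of ERBB3 (506 counts). ERBB3 was lower than in the primary tumor in dogs 1, 2 and 4 and higher in dog 3. The fitted log2FC was −0.49 (SE 1.03) for EGFR, −0.0040 (SE 1.07) for ERBB3 and −0.87 (SE 1.16) for ERBB4, all with an edgeR padj of 1. With the dog as a replicate block, the fit called 1 gene, which was no ERBB gene, and the log2FC was 0.033 (SE 0.32) for EGFR, −0.77 (SE 0.63) for ERBB3 and −0.56 (SE 0.34) for ERBB4.

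Ligand counts were low at both sites. EGF was found in the samples with high ERBB4, with 2.41 and 15.0 CPM in the primary tumors of dogs 1 and 2 and 0.973 and 3.71 CPM in their metastases (3 and 14 counts), against at most 1 count in the 4 samples of dogs 3 and 4. HBEGF was 0.904, 3.59, 2.37 and 1.11 CPM in the primary tumors and 2.60, 6.90, 1.61 and 4.79 CPM in the metastases, higher in 3 of 4 dogs. It did not pass the filter, and neither did BTC, which had at most 2 counts in these 8 samples.

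**Figure D3:**
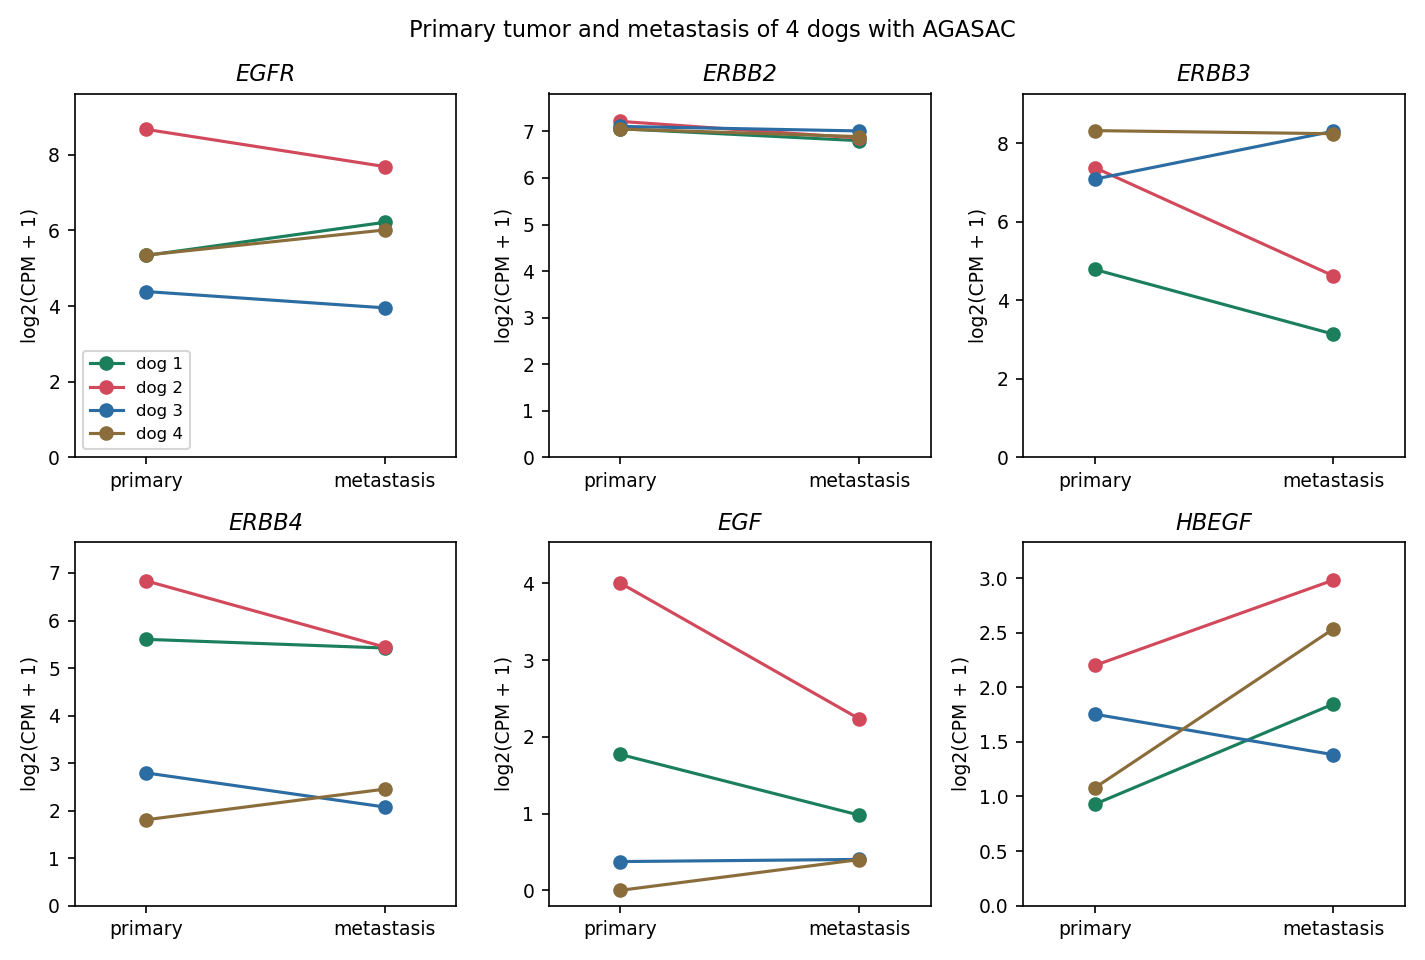
Level of EGFR, ERBB2, ERBB3, ERBB4, EGF and HBEGF as log2(CPM + 1) (vertical axis) in the primary tumor and the metastasis (horizontal axis) of 4 dogs with AGASAC. Each line joins the samples of 1 dog. The ERBB2 lines all run slightly down, while dogs 1 and 2 lie above dogs 3 and 4 for ERBB4 and EGF at both sites and below them for ERBB3 in the metastasis.

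The third comparison set the metastases against HGA, and it shares its 10 HGA with the first comparison, so it is no independent check of it. Of the 10 ERBB genes, 5 passed the filter and 2 were called, both lower in the metastases. Over all 13195 tested genes 16.1% were called, with 8.4% lower in the metastases. EGFR was 14.5, 63.6, 73.3 and 206 CPM in the 4 metastases, all below the lowest HGA, with a log2FC of −2.95 (SE 0.55, edgeR padj = 0.00618). Groups without overlap made up 1 of the 5 ERBB genes tested and 16.1% of all tested genes. BTC had 0, 1, 0 and 2 counts in metastases 1 to 4, with a log2FC of −6.25 (SE 1.18, edgeR padj = 0.00697). It passed the filter only through its counts in HGA, and the size of this change depends on the prior count. HBEGF, at 1.61 to 6.90 CPM, had a log2FC of −2.02 (SE 0.61, edgeR padj = 0.174) and was not called. ERBB2 (log2FC 0.42, SE 0.37) and ERBB3 (log2FC 1.104, SE 0.66) did not pass the test, with edgeR padj of 1 for both. ERBB4 had 10 to 160 counts in all 4 metastases and none in HGA, and its mean of 23.0 ± 22.1 CPM (SD, n = 4) was at least 12.5-fold higher than the limit of the shallowest HGA. It did not pass the filter with all 14 samples, and without the filter its edgeR padj was 0.00174.

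**Figure D4:**
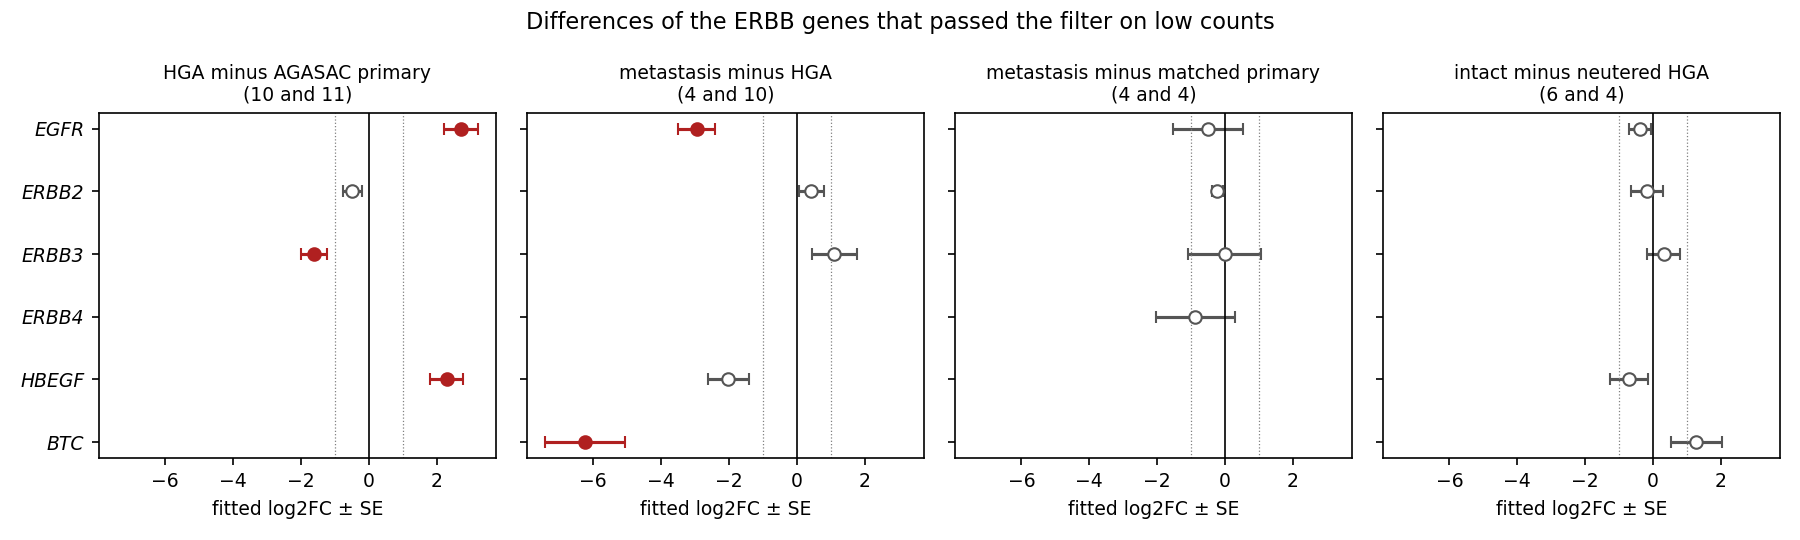
Fitted log2FC with its SE (horizontal axis) for the ERBB genes that passed the filter on low counts (vertical axis) in the 4 comparisons, with the numbers of samples above each panel. Filled red points were called and open grey points were not, and dotted lines mark a log2FC of −1 and 1. EGFR is far from 0 in both comparisons with HGA, at 2.71 and −2.95, and no point is filled within AGASAC or within HGA.

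Within HGA, the tumors of 6 intact and 4 neutered dogs were compared, since hepatoid glands are known to depend on sex hormones. Of the 10 ERBB genes 5 passed the filter and 0 were called, as were 0 of 11906 tested genes (0%) by edgeR, with 1167 genes at an unadjusted p under 0.05 and 22 genes called by DESeq2. BTC had the largest difference of the 5, with 3.69 to 45.3 CPM and a mean of 26.7 ± 14.4 CPM (SD, n = 6) in intact dogs and 0, 13.1, 14.8 and 15.4 CPM in neutered dogs. Its log2FC was 1.28 (SE 0.76, edgeR padj = 1), and 0.88 without HGA 10. EGFR was 606 ± 185 CPM (SD, n = 6) in intact and 784 ± 365 CPM (SD, n = 4) in neutered dogs, with a log2FC of −0.39 (SE 0.32, edgeR padj = 1). Of the intact dogs 4 of 6 were male, and of the neutered dogs 1 of 4. The log2FC was −0.18 (SE 0.46) for ERBB2, 0.32 (SE 0.49) for ERBB3 and −0.70 (SE 0.55) for HBEGF. Groups without overlap made up 0 of the 5 ERBB genes and 2.62% of all tested genes.

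Among the samples of a tumor type, 16 relations between the ERBB genes that passed the filter were computed on the log2(CPM + 1) scale. ERBB2 and ERBB3 were related over the 10 HGA. Pearson's r was 0.91 (permutation p = 0.00064, Benjamini-Hochberg adjusted over the 16 relations 0.0102) and Spearman's rho was 0.85 (permutation p = 0.00303, adjusted 0.0485). Without the 2 HGA farthest from the median of ERBB2, r was 0.85, and within the first file name series, which lacks HGA 10, it was 0.79 (n = 9). In the 11 primary AGASAC the r of ERBB2 and ERBB3 was 0.00069 (permutation p = 0.998). The difference between the tumors was not tested. BTC and ERBB3 had an r of 0.87 in HGA that was 0.31 without the 2 HGA farthest from the median of ERBB3, so it rested on those samples, and its adjusted permutation p was 0.0760. The other 14 relations had an adjusted permutation p of at least 0.204 for r.

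NRG3, a neuregulin that binds ERBB4, was singled out after its values were seen. It had 0 counts in all HGA and 23.2 and 24.8 CPM in AGASAC primary 1 and 2, where ERBB4 was highest. Metastases 1 to 4 had 20.8, 9.29, 1.93 and 2.56 CPM of NRG3, so it was also detected in metastases 3 and 4, where ERBB4 was low. AGASAC 11 had 18.5 CPM of NRG3 with 1.22 CPM of ERBB4, and 7 of the 11 primary tumors had no NRG3 count.

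**Figure D5:**
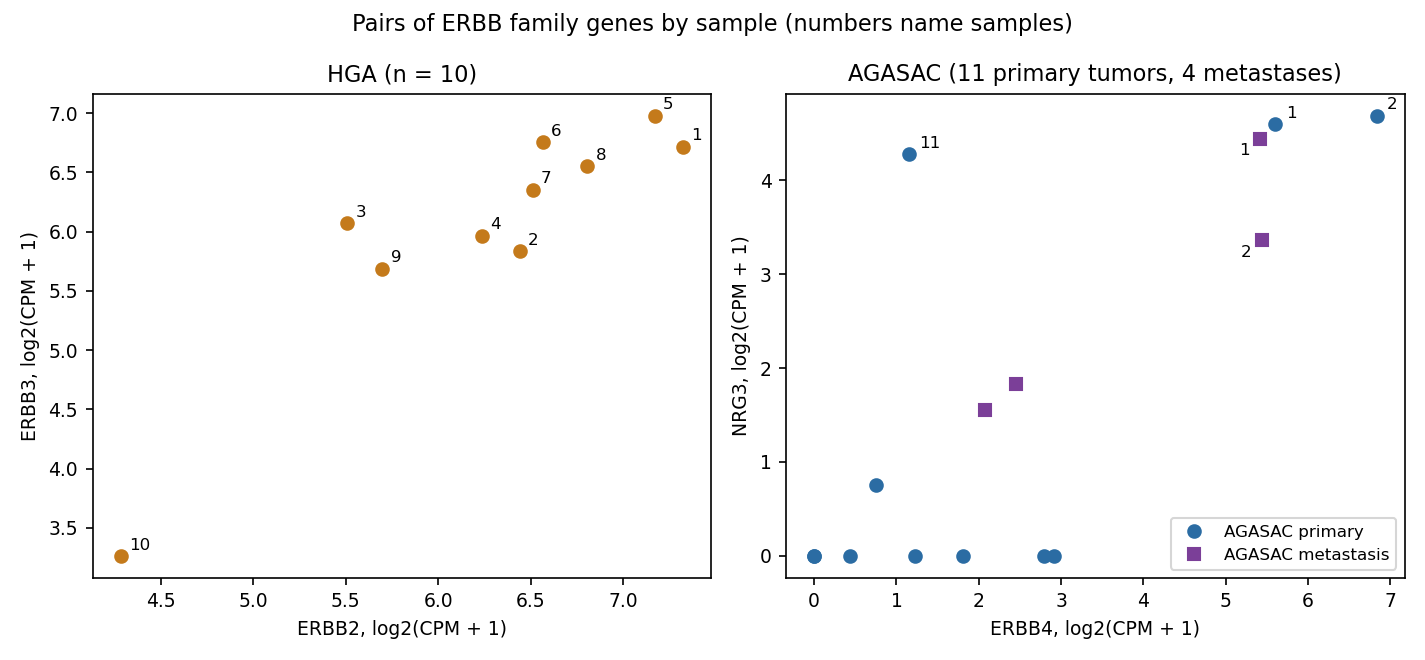
Left, ERBB2 (horizontal axis) against ERBB3 (vertical axis) as log2(CPM + 1) in 10 HGA, with Pearson's r of 0.91 and HGA 10 lowest in both. Right, ERBB4 (horizontal axis) against NRG3 (vertical axis) as log2(CPM + 1) in 11 primary AGASAC (circles) and 4 metastases (squares), where the samples of dogs 1 and 2 lie at the upper right and primary tumor 11 has NRG3 with little ERBB4. Numbers name the samples.

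Other genes of the pathway were counted by 4 lists. The EGF-family ligands outside the 6 above were EPGN, NRG1, NRG2 and NRG3, since NRG4 was not found by its symbol. Only NRG2, a neuregulin, passed the filter in HGA versus primary AGASAC, and it was higher in HGA, at 19.5 ± 10.6 CPM (SD, n = 10) against 3.39 ± 4.30 CPM (SD, n = 11) (log2FC 2.52, SE 0.59, edgeR padj = 0.0119). NRG2 had at least 16 counts in every HGA and a median of 8 counts in primary AGASAC, so it passed the filter through its counts in HGA. Of 8 ligand sheddases and iRhoms, 1 was higher and 1 lower in HGA, against 12.6% and 12.5% of all tested genes. Their median log2FC was −0.14, against −0.03 over all tested genes. ADAM10, a protease that frees BTC and EGF, was higher in HGA (log2FC 1.18, SE 0.25, edgeR padj = 0.00377), and RHBDF1, a partner of ADAM17, was lower (log2FC −1.43, SE 0.27, edgeR padj = 0.00111). ADAM17, the main protease of HBEGF, AREG and TGFA, was not called (log2FC 0.05, SE 0.19, edgeR padj = 1).

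Of 27 tested adaptors and kinases of the cascades, 4 were higher and 4 lower in HGA, against 12.6% and 12.5% of all tested genes. Their median log2FC was 0.03. PIK3R1 and PIK3R2, the regulatory subunits of phosphoinositide 3-kinase, were higher in HGA, with log2FC of 3.25 (SE 0.33, edgeR padj = 2.96e-07) and 2.40 (SE 0.18, edgeR padj = 1.64e-09). GRB7, an adaptor of ERBB2 and ERBB3, was 9.71 ± 7.45 CPM (SD, n = 10) in HGA, 229 ± 99.7 CPM (SD, n = 11) in primary AGASAC and 181 ± 10.5 CPM (SD, n = 4) in the metastases, with a log2FC of −4.53 in HGA (SE 0.44, edgeR padj = 1.33e-07). GAB1, an adaptor downstream of EGFR, was also lower in HGA (log2FC −2.61, SE 0.25, edgeR padj = 8.30e-08). These 4 genes were named as the largest rises and falls of the list. They were the 4 of the 27 tested for which HGA and primary AGASAC did not overlap. Groups without overlap made up 9.13% of all tested genes. Since the 4 were picked by their change in this same comparison, their lack of overlap is no separate evidence. Of 11 negative regulators of the receptors, among them ERRFI1, LRIG1 and CBL, 0 were called, against 25.1% of all tested genes. Their median log2FC was −0.22. Some lay close to the limit on padj. LRIG1 had a log2FC of −1.37 (SE 0.39, edgeR padj = 0.0543). CBL, with −0.54 (SE 0.15, edgeR padj = 0.0564), and RNF41, with 0.71 (SE 0.20, edgeR padj = 0.0607), were also short of the fold required. In metastasis against matched primary tumor, 0 genes of these lists were called, as were 0 of all tested genes. In metastasis against HGA, NRG2, PIK3R1, PIK3R2 and STAT5A were lower and GRB7 and GAB1 were higher in the metastases. There NRG2, with a median of 1.5 counts in the metastases, again passed the filter through HGA. Over all tested genes of that comparison 16.1% were called.

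The genes whose level followed each receptor most closely over the 25 samples were found among 14752 genes by Pearson's r on the log2(CPM + 1) scale, which is a description, since the tumor types set much of it. For EGFR they were RAB7A (r = 0.89), LATS2 (r = 0.89) and SRD5A3 (r = 0.87), whose r within primary AGASAC was 0.77, 0.77 and 0.73 and within HGA 0.32, 0.24 and 0.0088. For ERBB2 they were UNC119B (r = 0.82), MAP4K1 (r = 0.81) and LOC484867 (r = 0.79), with r of 0.87, 0.86 and 0.81 within HGA and 0.46, 0.47 and 0.23 within primary AGASAC. For ERBB3 they were CD63 (r = 0.77), ATP10B (r = 0.74) and SERPINF2 (r = 0.72), with r of 0.75, 0.89 and 0.71 within primary AGASAC and 0.31, 0.32 and 0.28 within HGA. For ERBB4 they were DNAH2 (r = 0.91), LYN (r = 0.89) and CENPV (r = 0.89), with r of 0.81, 0.89 and 0.88 within primary AGASAC, and none could be given within HGA, where ERBB4 was 0 throughout.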

How the data were processed

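Total RNA of 25 canine FFPE tumor samples was sequenced with the QuantSeq 3′ FWD kit. The authors trimmed reads with cutadapt, aligned them to CanFam3.1 with STAR and counted them per gene with featureCounts, in a second round on annotation extended at its 3′ end, with multi-mapped reads split evenly. Versions were not given in the sources used here. The deposited counts, whole numbers without normalization, were used. The deposited table also has a signal column for each sample (counts over a size factor) and columns of the authors' own DESeq2 comparison (mean signal, log2 fold change, error, p-value and adjusted p-value), none of which were used. The number of per-sample columns left unmapped was 0. RefSeq's gene list for the UU_Cfam_GSD_1.0 assembly held all 10 symbols, and since the counts rest on another assembly, no coordinates are given.

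The tests used edgeR 4.0.16 (R 4.3.3) with filterByExpr (minimum count 10, minimum total 15), TMM, the quasi-likelihood test across all genes, Benjamini-Yekutieli adjustment, and calls at padj of at most 0.05 and log2FC of at least 1 in size. SE is log2FC over the root of F. The pseudocount on the log2(CPM + 1) scale was 1. Correlation p values are two-sided, from 100000 permutations. Alternatives were DESeq2 1.42.0, other scalings, filters and adjustments, covariates, single batches, replicate blocks and leaving out each sample. The scripts were tested on simulated data.

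Metastasis and primary tumor of a number come from the same dog by the labels, and their differences from the group means were alike (r across genes 0.70, 0.49, 0.55 and 0.42). No samples were duplicates (chi-square per degree of freedom at least 12.2). Samples of a group are separate dogs. All 10 ERBB genes are named, with up to 2 called genes of largest rise and 2 of largest fall from each pathway list and the 3 genes most like each receptor. NRG3, STAT5A and genes named as not called were picked after their values were seen. The members and lists were chosen with earlier results of these data known.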

Additional observations from a re-analysis of the deposited data

Results flagged for a closer look

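EGFR in HGA 10 was 1320.3 CPM (3070 counts), and the next highest HGA had 905 CPM. Its gap to that sample divided by the range of the 10 HGA was 0.467, just above the limit of Dixon's test at the 95% level. HGA 10 also had the lowest ERBB2 (18.5 CPM) and ERBB3 (8.60 CPM) of the HGA and no BTC count, and it was alone among the HGA in its extraction batch and file name series. The part of the batch in these values was not tested.

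AREG in AGASAC metastasis 4 was 2.24 CPM, against at most 0.322 CPM in the other 3 metastases, with a ratio of 0.856, above the same limit for 4 samples. It rests on 7 counts. A total of 13 groups of values were examined in this way, of which chance flags about 1 in 20.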

How the results depend on the processing

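In HGA versus AGASAC primary, EGFR and HBEGF kept their direction and call in all scalings, filters and adjustments tried and in all 21 fits that each left out a tumor (EGFR 2.55 to 3.18, HBEGF 2.15 to 2.54, ERBB3 −1.75 to −1.42). Library size alone moved the median log2FC of all genes from −0.03 to −0.33, and the share of called genes that were higher in HGA from 50.2% to 32.8%. Against HGA, it moved the median in the metastases from −0.02 to 0.26 and that share from 47.8% to 63.7%, and one fit of all samples gave 54.1%. No alternative reversed EGFR, ERBB3, HBEGF or BTC between tumor types. ERBB3 was not called with one fit of all 25 samples (padj = 0.0956), with the replicate number as a block (log2FC −1.60, padj = 0.166, so that 0 ERBB genes were lower), or with the file name series as a covariate, where 2009 genes in all, 1 ERBB gene higher and 0 lower were called.

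Within the first file name series 1 ERBB gene, BTC, was called higher, and ERBB4 was the 1 lower. BTC had 0 counts in the AGASAC of that series and ERBB4 had 0 counts in its HGA. Each thus passed the filter only through the tumors in which it was high. Within extraction batches 5, 6 and 8, 262, 637 and 338 genes were called, with 0, 1 and 0 ERBB genes higher and 0 lower, and ERBB2 was reversed in batch 6 (log2FC 0.43). Those fits held 5 or 6 tumors each, and with the extraction batch as a covariate over all 21 tumors 3003 genes were called, with 2 ERBB genes higher and 1 lower, as without it. DESeq2 (4464 genes in all) and the fit without a filter on low counts (3951) each called 2 ERBB genes lower, the second being ERBB4, and 3 higher, the third being BTC. One fit of all 25 samples called 3 higher, with BTC, and 1 lower, which was ERBB4 (padj = 0.0128) and not ERBB3. In that fit too, BTC passed the filter only through HGA and ERBB4 only through AGASAC. Of single tumors left out, only HGA 10 changed a count of ERBB genes, from 2 to 3 higher, since BTC then passed the filter.

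In metastasis versus matched primary, DESeq2 called 5 genes, and the dog as a replicate block 1, with EGFR reversed to 0.033. ERBB4 was reversed to 0.49 in one fit of all samples and to 0.51 against all 11 primary tumors. Leaving out single samples gave −1.34 to 1.46 for EGFR, −0.54 to 0.58 for ERBB3 and −1.38 to 0.33 for ERBB4, and the sign of EGFR and ERBB4 turned without primary tumor 2.

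In metastasis versus HGA, 3187 genes were called by DESeq2, 3536 with Benjamini-Hochberg adjustment and 762 with the replicate number as a block, where 0 ERBB genes were called lower (EGFR padj = 0.0962, BTC padj = 0.0726). HBEGF was called by DESeq2 (padj = 0.0298) and with Benjamini-Hochberg adjustment (padj = 0.0173). ERBB4 was the 1 ERBB gene called higher by DESeq2, without a filter, and in one fit of all samples, in which 1 ERBB gene was lower (EGFR padj = 0.0577). Leaving out single samples gave 0 to 1 ERBB genes higher, since ERBB4 then passed the filter in 8 of 14 fits. With no count in any HGA, ERBB4 passed only through the metastases. HGA and AGASAC of a number share only that number, as their deviations had r between −0.060 and 0.027 and in no case was a sample closest to its own number.

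In intact versus neutered HGA, DESeq2 called 22 genes, no filter 1, Benjamini-Hochberg adjustment 1 and fits without single tumors 0 to 1. Without single tumors EGFR ran from −0.53 to 0.0077, ERBB2 from −0.51 to 0.16 and ERBB3 from −0.043 to 0.59, turning without HGA 10, HGA 1 and HGA 10. Depth limits AREG, EGF, EREG and TGFA, whose counts were near 3 or lower in most samples.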

Other observations

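In RefSeq's annotation of UU_Cfam_GSD_1.0, ERBB2 lies between MIEN1 and PGAP3, with GRB7 on the far side of MIEN1. Of the 3 protein-coding genes on either side of ERBB2, 4 of 6 passed the filter in HGA versus AGASAC primary. Of these, 2 were called, both lower in HGA. Over all tested genes 25.1% were called, with 12.5% lower in HGA. GRB7 had a log2FC of −4.53 (SE 0.44, edgeR padj = 1.33e-07) and IKZF3, a lymphocyte transcription factor, had −4.61 (SE 0.85, edgeR padj = 0.000928). MIEN1 had a log2FC of 0.94 (SE 0.20, edgeR padj = 0.00423), short of the fold required, and PGAP3 had −0.33 (SE 0.17, edgeR padj = 1). PNMT, which had 0 CPM in HGA and a mean of 66.4 CPM in primary AGASAC, and TCAP did not pass the filter. ERBB2 itself had −0.48 and was not called. These neighbours were chosen after the values of GRB7 were seen.

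ERBB3 and HBEGF had a Pearson's r of −0.13 over the 11 primary AGASAC (permutation p = 0.736, Benjamini-Hochberg adjusted over 16 relations 0.856) and of −0.94 over the 7 of the second file name series. Within that series AGASAC 8 had the most ERBB3 and the least HBEGF, at 549 and 0.335 CPM. The value within the series was picked after it was seen and was not tested.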
